A study of Homo sapiens with 4 samples.

Results

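Clusters of H3K36me2 peaks were examined in vehicle-treated MV4;11 cells as candidate broad domains of the mark. A peak was counted as clustered when its summit, the position covered by the most fragments, lay within 100 kb of the summit of another peak of the same list, and such peaks were chained into clusters. Peaks within 2 Mb of an assembly gap of at least 1 Mb were left out. By this rule 353 of the 1303 DMSO H3K36me2 peaks away from gaps were clustered, and they formed 155 clusters, whereas 950 peaks were isolated. The members were thus chosen by the summit positions of this 1 list, and its own values at the members are given as a description. The list held 1375 peaks in all, of which 56 lay beside gaps and 16 on chromosomes other than 1 to 22 and X.

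MV4;11 cells come from a human leukemia in which the MLL1 gene is rearranged, and all groups were of this line, with no genetic change made by the study. In CUT&RUN, an antibody held on chromatin recruits a nuclease that releases the DNA around its target for sequencing. The groups were cells given 0.25% DMSO, the vehicle, or 5 µM AS-99, a small-molecule inhibitor of the methyltransferase ASH1L, each for 4 days and each probed for H3K36me2 or for ASH1L. The DMSO H3K36me2 library had 15584143 fragments after filtering, the AS-99 H3K36me2 library 13208636, the DMSO ASH1L library 19635489 and the AS-99 ASH1L library 15381860. There was 1 library in each of the 4 groups, so no difference below has a replicate check, and the intervals reflect counting error or variation among peaks alone.

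Histone H3 is dimethylated at lysine 36 by several enzymes, among them ASH1L and the NSD family, and the mark is known for occupying broad stretches within genes and between them. Removal is carried out by demethylases such as KDM2A, and proteins such as LEDGF and DNMT3A read the mark through their PWWP domains. In MLL1-rearranged leukemia, ASH1L and its mark are known for their link to the HOXA genes and MEIS1.

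The windows below show what lay under the peaks of the clusters on which the results turn. Each is 200 bp of the plus strand of GRCh37 around a summit, 5′ to 3′, with the CG dinucleotides in capitals, since sequence rich in CG is typical of promoters. The CG letters read the same on both strands. The first is the highest peak of the cluster with the most peaks, the second that of the cluster with the most peaks inside a gene, and the PTPRC windows belong to the closest pair. The AHI1, MAPK6 and chromosome 17 windows belong to peaks that an AS-99 H3K36me2 peak overlapped. For the chromosome 1 cluster and the chromosome 17 cluster, the gene named is the nearest one measured from the cluster span, not from the window.
Chromosome 1 cluster beside TOMM20, highest peak, chr1:234914099-234914298: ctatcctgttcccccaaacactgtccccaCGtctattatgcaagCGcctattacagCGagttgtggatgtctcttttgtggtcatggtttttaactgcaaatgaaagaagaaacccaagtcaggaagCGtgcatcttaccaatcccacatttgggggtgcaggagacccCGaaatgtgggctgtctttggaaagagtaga
FOXN3 intron, highest peak, chr14:89953617-89953816: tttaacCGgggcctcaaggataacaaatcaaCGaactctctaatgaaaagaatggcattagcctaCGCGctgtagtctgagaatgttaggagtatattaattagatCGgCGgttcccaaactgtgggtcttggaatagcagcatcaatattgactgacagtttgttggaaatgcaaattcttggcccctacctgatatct
PTPRC intron, left peak, chr1:198650724-198650923: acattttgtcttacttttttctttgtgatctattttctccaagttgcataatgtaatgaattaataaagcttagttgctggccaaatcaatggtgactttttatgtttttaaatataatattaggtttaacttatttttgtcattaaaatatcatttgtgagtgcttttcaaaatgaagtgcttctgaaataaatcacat
PTPRC intron, right peak, chr1:198651442-198651641: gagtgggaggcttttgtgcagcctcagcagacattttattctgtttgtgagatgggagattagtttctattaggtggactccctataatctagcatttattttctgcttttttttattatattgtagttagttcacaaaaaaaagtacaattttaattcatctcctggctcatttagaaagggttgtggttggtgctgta
Beside AHI1, left peak, chr6:135602286-135602485: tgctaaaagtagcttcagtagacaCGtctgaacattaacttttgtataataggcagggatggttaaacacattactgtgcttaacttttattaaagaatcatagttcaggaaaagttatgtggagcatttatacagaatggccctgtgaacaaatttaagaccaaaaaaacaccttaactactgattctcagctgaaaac
AHI1 intron, right peak, chr6:135628295-135628494: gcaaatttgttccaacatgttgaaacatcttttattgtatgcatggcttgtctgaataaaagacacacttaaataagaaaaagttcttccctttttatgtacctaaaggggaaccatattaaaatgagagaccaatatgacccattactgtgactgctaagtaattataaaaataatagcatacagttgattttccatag
MAPK6 intron, chr15:52305552-52305751: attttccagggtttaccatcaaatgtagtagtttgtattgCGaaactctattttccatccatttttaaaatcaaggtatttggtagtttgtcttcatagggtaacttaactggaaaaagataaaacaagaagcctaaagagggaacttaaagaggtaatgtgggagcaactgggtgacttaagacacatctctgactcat
Chromosome 17 cluster beside TMEM106A, chr17:41400750-41400949: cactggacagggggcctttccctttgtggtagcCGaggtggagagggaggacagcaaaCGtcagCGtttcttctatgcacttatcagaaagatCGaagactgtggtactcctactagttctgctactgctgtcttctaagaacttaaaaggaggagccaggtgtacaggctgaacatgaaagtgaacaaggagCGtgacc

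The chromosome 1 window held 5 CG dinucleotides, the FOXN3 window 6 and the chromosome 17 window 5. Both PTPRC windows and the AHI1 intron window held 0. Over all members, 288 of the 353 windows of this length (81.6%) held a CG, with a median of 2 per window, and 756 of the 950 isolated windows (79.6%) did so, also with a median of 2. The GC content of 300 bp around the summit had a median of 44.7% in clustered and 44.3% in isolated peaks, and the clustered interval of 43.3% to 45.7% held the isolated median.

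Most clusters were pairs of distant, narrow peaks. There were 128 clusters of 2 peaks, 18 of 3, 5 of 4, 2 of 5, 1 of 6 and 1 of 7. The span, from the start of the first peak to the end of the last, had a median of 41.1 kb and ranged from 988 bp to 332.8 kb, with the middle 50% of clusters between 23.3 and 70.3 kb. The called peaks themselves covered a median of 2.09% of the span, from 0.622% to 64.8%, and more than 10% in 8 of the 155 clusters. The lists therefore showed groups of narrow peaks, and no called peak that filled such a span. Peaks were called against a 10 kb local background from the same library, which a longer domain would itself raise. The calls therefore cannot show whether the mark was broad or narrow in these spans. Of the 198 distances between consecutive summits in a cluster, 20 were under 10 kb, 111 from 10 to 50 kb and 67 over 50 kb, with a median of 34.8 kb.

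The spacing rule divided a continuous range. The members just inside it had a nearest summit at 98946 bp (chromosome 1, pileup 21) and 98502 bp (chromosome 16, at MMP2, pileup 19). Just outside, the nearest summit lay at 100303 bp (chromosome 9, pileup 25) and 100777 bp (chromosome 8, in CPQ, pileup 33). The median distance to the nearest summit was 33.4 kb in clustered and 666 kb in isolated peaks, which the rule itself sets.

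**Figure D1:**
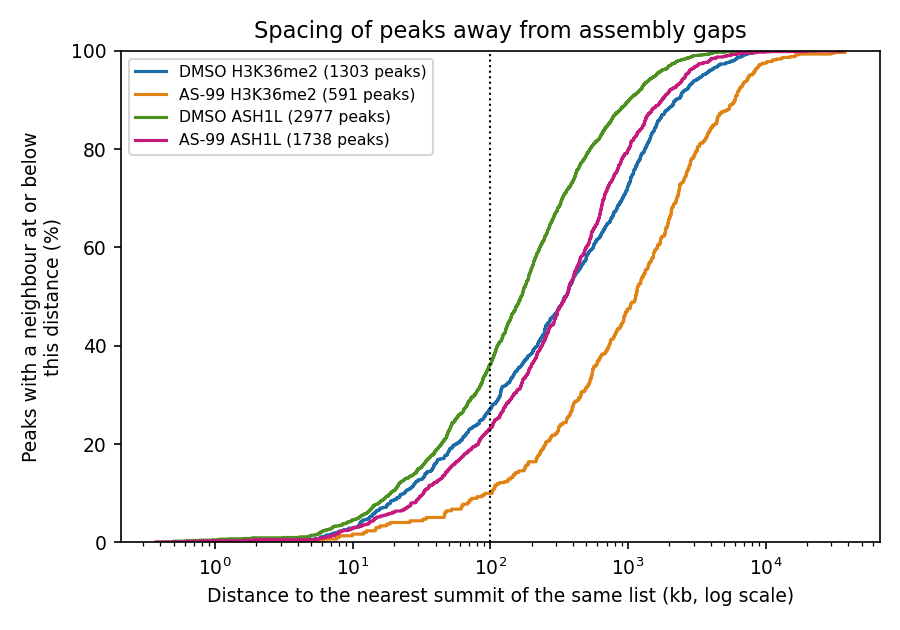
Distance from each peak to the nearest summit of the same list (x axis, kb, log scale) against the share of peaks with a neighbour at or below that distance (y axis, %), for the 4 lists away from gaps. The dotted line marks 100 kb, where the curves stand at 27.1% for DMSO H3K36me2, 9.98% for AS-99 H3K36me2, 36.2% for DMSO ASH1L and 23.1% for AS-99 ASH1L.

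The cluster with the most peaks held no protein-coding gene. It ran over chr1:234914150-235246996 with 7 peaks, the nearest protein-coding gene being TOMM20, a receptor of the mitochondrial import machinery, 25.7 kb away. The annotation placed several long noncoding RNAs there, among them LINC02971 and LNCATV. From left to right the DMSO H3K36me2 pileups, the numbers of fragments at the summits, were 38, 32, 30, 28, 26, 25 and 21. Fold enrichment over the local background, as deposited, lay between 3.64 and 5.68. The AS-99 H3K36me2 list held 1 peak in this span, with a pileup of 23 at the member of 26. The DMSO ASH1L list held 5 peaks there, with pileups from 14 to 27, of which 2 overlapped members, and the AS-99 ASH1L list held 0.

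FOXN3, a forkhead transcriptional repressor, held the largest cluster inside a gene. Its 6 peaks over chr14:89817944-89971474 all lay in introns and had pileups of 18, 18, 17, 18, 19 and 15. No AS-99 H3K36me2 or AS-99 ASH1L peak was listed in this span (0 each). A DMSO ASH1L peak overlapped only the member with a pileup of 15. All 6 members stood at or below the median of the list, 19 fragments, and were nearly even in height.

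CPQ, a secreted carboxypeptidase, held 5 peaks in its introns over chr8:97873548-98001405, with pileups of 29, 29, 22, 20 and 37. An AS-99 H3K36me2 peak with a pileup of 19 overlapped the member of 20, the lowest of the 5. None of the ASH1L peaks fell in this span (0 in both lists). The local background here was high, with a median of 7.04 fragments behind the members against 1.67 genome-wide.

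Another cluster of 5 peaks crossed from PDHX, a structural subunit of the pyruvate dehydrogenase complex, to CD44, the receptor for hyaluronan, over chr11:34999150-35167198. The member in a PDHX intron had a pileup of 13, the 3 between the genes 31, 24 and 20, and the member in a CD44 intron 22. The AS-99 H3K36me2 list held no peak in this span (0). ASH1L peaks of both treatments overlapped the member of 20, with pileups of 19 with DMSO and 15 with AS-99.

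Of the clusters of 4 peaks, that on chromosome 19 (chr19:6522096-6728963) spanned 4 genes of immune ligands and complement. These were TNFSF9, CD70 and TNFSF14, which encode ligands of the tumor necrosis factor family, and C3, the central complement component. The pileups were 30, 34, 22 and 27, the last in a C3 intron. At the first member an AS-99 H3K36me2 peak (pileup 21), a DMSO ASH1L peak (27) and an AS-99 ASH1L peak (25) all overlapped. The cluster at PPCDC, an enzyme of coenzyme A synthesis (chr15:75335306-75446198), had pileups of 22, 18, 23 and 18. It held 4 DMSO ASH1L peaks, of which the highest had a pileup of 41, and 1 AS-99 H3K36me2 peak with a pileup of 17 at the member of 22. The cluster from LCP2, an adaptor of immune receptor signaling, to KCNIP1 and KCNMB1, both coding for potassium channel partners, had pileups of 17, 18, 26 and 18 over chr5:169705740-169879499 and no AS-99 H3K36me2 peak (0).

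The remaining 2 clusters of 4 peaks held no protein-coding gene. That on chromosome 2 (chr2:145403358-145459356) lay 124.7 kb from ZEB2, a transcriptional repressor, and overlapped the noncoding gene TEX41. Its pileups of 24, 30, 36 and 43 stood on a median local background of 9.68 fragments, so that fold enrichment was only 2.80 to 3.72. None of the other 3 lists had a peak in it (0 each). That on chromosome 8 lay 25.2 kb from PPP2R2A, a regulatory subunit of protein phosphatase 2A, with pileups from 22 to 31 and 1 peak of each ASH1L list.

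**Figure D2:**
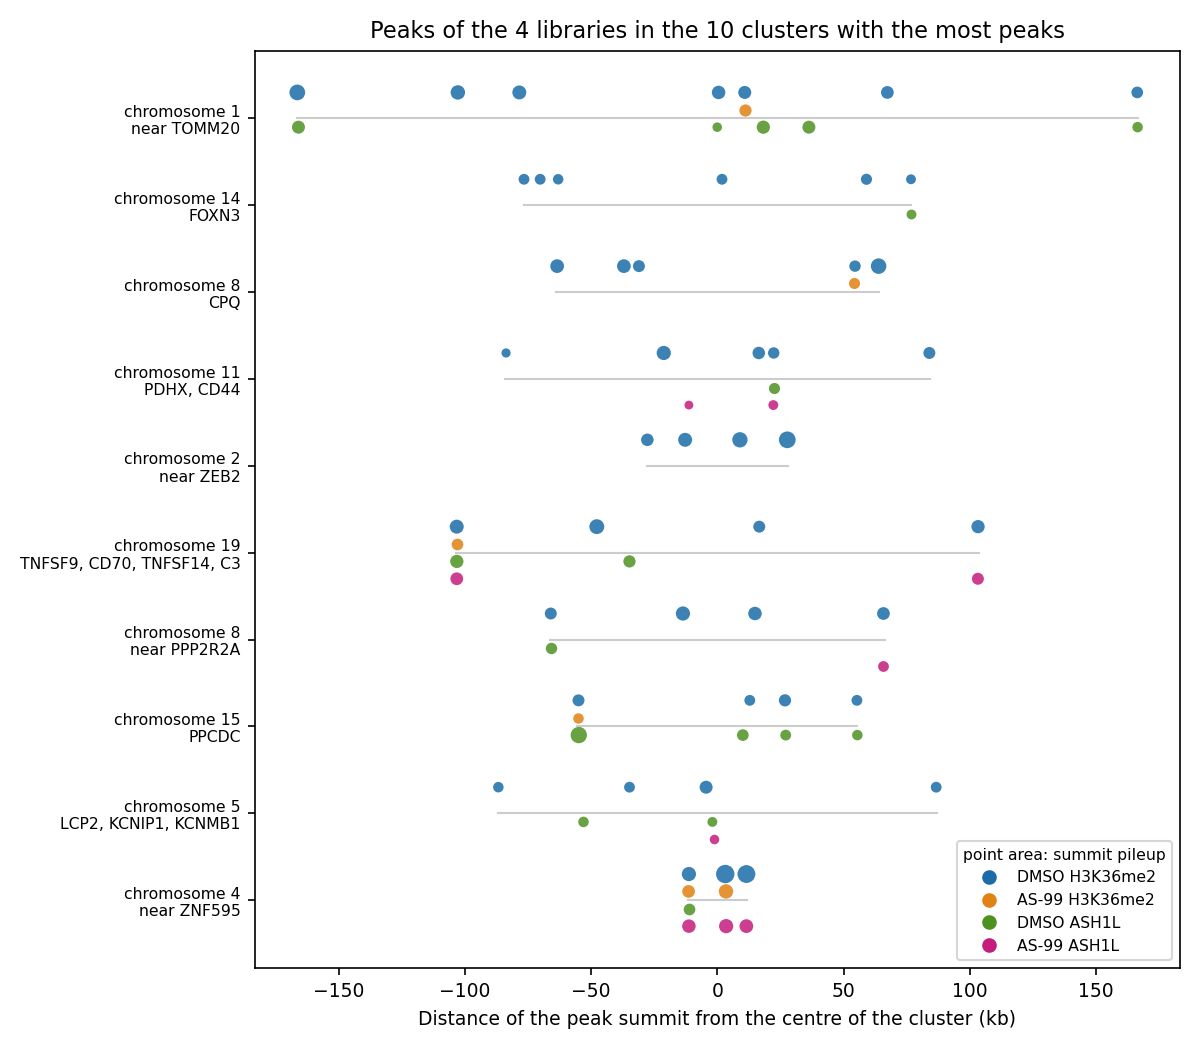
Summits of the 4 libraries in the 10 clusters with the most DMSO H3K36me2 peaks, ties ordered by summed pileup. The x axis is the distance from the centre of the cluster in kb, the gray line is the span, colors mark the library and the point area is proportional to the summit pileup. Blue DMSO H3K36me2 points number 7, 6, 5 and 5 in the top 4 rows, and orange AS-99 H3K36me2 points are present in 5 of the 10 rows.

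Among the 15 clusters with the most peaks, 9 overlapped a protein-coding gene and 4 were on chromosome 8. The clusters of 3 peaks in this set included those at SNTB1, a syntrophin, at CRTC3, a coactivator of CREB, and at DCANP1 and TIFAB, the last a partner of the TRAF-interacting protein TIFA. Others lay beside MTSS1, ZNF595 and FCGR1A, the high-affinity immunoglobulin receptor. In all, these 15 clusters held 61 members, of which an AS-99 H3K36me2 peak overlapped 6, beside 9.07% of all clustered peaks. A DMSO ASH1L peak was listed in 11 of the 15 spans, an AS-99 ASH1L peak in 8 and an AS-99 H3K36me2 peak in 5. Over all 155 clusters these shares were 47.1%, 21.9% and 20%. Clusters of 3 or more peaks also had longer spans than pairs, with medians of 77.0 and 38.6 kb, and the part of span length was not tested.

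The closest members lay in PTPRC, which encodes the leukocyte phosphatase CD45. Its 2 intronic peaks had pileups of 23 and 29 over chr1:198650672-198651659, a span of 988 bp, and together covered 64.8% of it. None of the other 3 lists had a peak there (0 each). The other 4 most compact clusters included that at RCSD1, which encodes a regulator of actin capping (4.57 kb). Another lay at TEX2, a lipid transfer protein of the endoplasmic reticulum (5.69 kb). The remaining ones lay at ZNF395 and FBXO16 (6.10 kb), and on chromosome 8 outside protein-coding genes, 256 kb from TRIB1 (4.53 kb). No AS-99 H3K36me2 peak was listed in any of these 5 spans (0), where 124 of all 155 spans held none. These 5 spans were also the shortest, so the count of 0 is not read as a trait of compact clusters. The longest was the chromosome 1 cluster without a protein-coding gene (332.8 kb). Next among the 5 longest were the TNFSF9 to C3 cluster (206.9 kb), the LCP2 to KCNMB1 cluster (173.8 kb) and the PDHX to CD44 cluster (168.0 kb). The last of them lay at UNC79, a subunit of a sodium leak channel complex (164.6 kb).

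Most clusters touched a gene, and the share of members inside genes differed from that of isolated peaks by less than its interval could resolve. Of the 155 spans, 112 overlapped a protein-coding gene, 81 of them 1 gene and 31 more than that, with 183 genes in all. In 56 clusters all members lay in the same gene, 44 spans held a gene start, and 12 clusters had a member at a promoter, within 1 kb of a gene start. Of the 43 spans without a protein-coding gene, 34 overlapped another annotated gene, and the nearest protein-coding gene was a median of 35.4 kb away, from 1.26 to 522 kb. The share of members with the summit inside a protein-coding gene was 55.2% against 50.5% of isolated peaks, beside 51.8% of all peaks tested. The difference of 4.71 percentage points had an interval from −1.39 to 10.7. By position, 163 members (46.2%) lay in introns and 155 (43.9%) between genes, beside 43.7% and 46.0% of all peaks. Another 19 (5.38%) lay in exons, beside 4.99% of all. The 16 members at promoters were 4.53% of members beside 5.68% of isolated peaks and 5.37% of all.

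Of the leukemia, chromatin and myeloid genes listed, only RUNX1 and CEBPA lay at a cluster. None of 27 targets of MLL fusion proteins, such as HOXA9 and MEIS1, lay in or within 5 kb of a cluster (0), nor did any of 12 writers and erasers of H3K36 methylation (0) or any of 10 readers (0). Of 20 myeloid genes 2 did so. Of all 20098 protein-coding genes 204 did, or 1.02%, so that even a count of 0 in these short lists is near what the whole set gives. RUNX1, a transcription factor of blood cell formation, is annotated here over chr21:36160098-37376965 on the minus strand and held 2 clusters.

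The first RUNX1 cluster, chr21:36848166-36881380, had intronic DMSO H3K36me2 peaks with pileups of 22 and 25. It held a DMSO ASH1L peak (pileup 21) at the member of 25, and an AS-99 H3K36me2 peak (12) and an AS-99 ASH1L peak (15) that overlapped neither member. The second, chr21:37030346-37110681, had pileups of 22 and 22. At its right member an AS-99 H3K36me2 peak with a pileup of 17 and a DMSO ASH1L peak with a pileup of 16 overlapped. Over the whole gene and 5 kb on either side, the lists held 6 peaks for DMSO H3K36me2, 2 for AS-99 H3K36me2, 6 for DMSO ASH1L and 3 for AS-99 ASH1L. CEBPA, a transcription factor of the granulocyte lineage, lay between the members of the cluster chr19:33784203-33823443, whose pileups were 27 and 28. No peak of any list lay in CEBPA or within 5 kb of it (0 in each of the 4 lists).

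The central question was what the AS-99 H3K36me2 list held in these spans. It held a peak in 31 of 155 clusters, or 20% (14.0% to 27.2%), and none in 124. The 36 peaks in spans were 6.09% of the 591 AS-99 peaks away from gaps. Of these, 32 overlapped a member and 4 lay beside members. Among clusters of 3 or more peaks, 7 of 27 held an AS-99 peak, or 25.9% (11.1% to 46.3%), and among pairs 24 of 128, or 18.8% (12.4% to 26.6%). These intervals overlapped widely, while the larger clusters also had the longer median span, 77.0 kb against 38.6 kb.

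Counted by member, an AS-99 H3K36me2 peak overlapped 32 of 353 clustered peaks, or 9.07% (6.28% to 12.6%). The share was 5.89% (4.48% to 7.59%) in isolated peaks, or 56 of 950, and 6.75% in all. The difference was 3.17 percentage points with an interval from 0.0979 to 6.87, so its lower bound lay close to 0. With chromosome 8 left out it was 2.22 (−0.916 to 6.14), and with regions present in all 4 lists left out 1.72 (−0.918 to 5.05).

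The height of the peaks moved with clustering. The summit pileup of the members had a median of 21 fragments (20 to 22), from 11 to 90, and that of isolated peaks 18 (17 to 18), from 10 to 59. Within classes of pileup, an AS-99 peak overlapped 1 of 59 clustered and 17 of 344 isolated peaks at a pileup of up to 16, and 10 of 106 against 14 of 337 from 17 to 20. From 21 to 24 the counts were 7 of 87 and 11 of 178, and from 25 upward 14 of 101 and 14 of 91. The clustered share was the higher one in 2 of these 4 classes, and the interval of the difference excluded 0 only from 17 to 20 (5.28 points, 0.264 to 12.5). What part the pileup had in the difference over all peaks was not tested.

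The surroundings of the members were then examined. Another AS-99 H3K36me2 summit lay within 50 kb of 12.5% of members and of 5.05% of isolated peaks, with 7.06% in all, but these summits include those at the neighboring members. When only AS-99 peaks that overlapped no DMSO H3K36me2 peak were counted, the shares were 5.38% (19 of 353) and 5.05% (48 of 950), with 5.14% in all. The difference was 0.330 points, with an interval from −2.15 to 3.45.

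**Figure D3:**
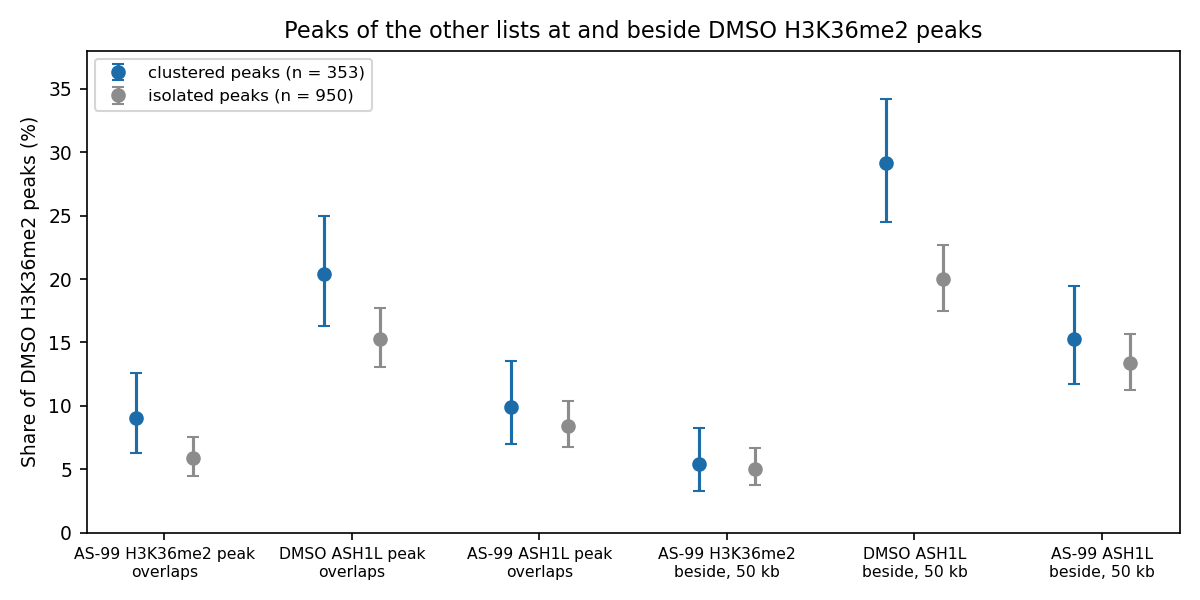
Share of DMSO H3K36me2 peaks (y axis, %) overlapped by a peak of another list, or with a summit of that list within 50 kb that is at no DMSO H3K36me2 peak (beside), for 353 clustered (blue) and 950 isolated peaks (gray). Bars are exact 95% binomial intervals over peaks of 1 library each. The intervals lie apart only for DMSO ASH1L summits beside the peaks, 29.2% against 20%.

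An AS-99 peak overlapped at least 1 member in 27 clusters, at least 2 members in 5, and every member in 4. The 4 were the pairs at AHI1, at PIK3CB, on chromosome 17 beside TMEM106A, and at REXO1L1. At AHI1, which encodes a protein of the primary cilium, the DMSO pileups of 27 and 21 were matched by AS-99 pileups of 20 and 17. At PIK3CB, a catalytic subunit of phosphoinositide 3-kinase, DMSO pileups of 19 and 19 were matched by 13 and 20. The chromosome 17 cluster (chr17:41381836-41401153) held the highest member of all. Its pileups were 33 and 90 with DMSO and 24 and 73 with AS-99, and both members overlapped peaks of all 4 lists. The ASH1L pileups at these members were 33 and 98 with DMSO and 24 and 79 with AS-99. The cluster with 2 of 3 members overlapped, chr4:28685-51918 beside ZNF595, had pileups of 31, 52 and 49 with DMSO. AS-99 peaks of 25 and 32 lay at the first and the second. Its median local background was 13.3 fragments, against 1.67 genome-wide. Whether reads in the chromosome 17 and ZNF595 clusters could be assigned to 1 place in the genome was not tested.

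To compare peak heights, each pileup was expressed per 1000000 filtered fragments of its library, called the scaled pileup here, and peaks matched 1 to 1 were compared. The 32 clustered pairs had a median log2 ratio of AS-99 to DMSO of −0.14, with an interval over pairs from −0.30 to 0.06. It was lower with AS-99 in 22 pairs and higher in 10. The 56 isolated pairs had a median of −0.083 (−0.15 to 0.032). Of the clustered pairs 1 was at least 2-fold higher with AS-99 and 0 were 2-fold lower, where 2.27% of all 88 pairs passed in each direction. Members without an AS-99 peak had no value to compare, so this ratio covers only the members listed in both.

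The clustered pairs ranged from −0.84 to 1.12 on the log2 scale. The MAPK6 member, in an intron of the gene for an atypical MAP kinase, had a pileup of 26 with DMSO and 16 with AS-99, and a scaled pileup of 1.67 and 1.21, a log2 ratio of −0.46 that the second ZNF595 member shared. The intergenic member of the SDC2 cluster, at chr8:97632775-97633928, had 38 and 18, and a scaled pileup of 2.44 and 1.36, the lowest log2 ratio of the 32 at −0.84. At REXO1L1, an exonuclease-like gene in an array of near-identical copies, the scaled pileups were 0.834 and 1.48 with DMSO and 1.82 and 2.27 with AS-99. In their 300 bp windows 78.3% and 54.1% of the 20-letter words recurred within 50 kb, and whether reads there could be assigned to 1 copy was not tested. In 3 members (0.850%), beside 0.384% of all, at least 50% of these words recurred. The third belonged to the cluster at RPS6KA1, a ribosomal S6 kinase, but itself lay outside protein-coding genes. Without members in which at least 50% of the words recurred, the median was −0.17 over 30 pairs, with an interval from −0.30 to −0.063. In other clusters, the scaled pileups of matched members with DMSO and AS-99 were 2.31 and 2.04 at PDE4DIP, an anchor protein of the centrosome, and 1.16 and 1.21 at PLCL2, a phospholipase C-like protein, which was thus the higher one with AS-99. At the left member of the cluster beside DNAJC5B they were 2.25 and 1.51, with a log2 ratio of −0.57. Other scaled pileups were 1.67 and 1.29 near SERINC2, 1.93 and 1.44 near NEUROD1, and 1.86 and 1.51 in the CCN4 cluster. PDE4DIP and FCGR1A have near-identical copies elsewhere in the genome, so peaks at them are uncertain. At SMAD3, a transducer of TGF-beta signals, the scaled pileups were 1.41 and 1.36.

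**Figure D4:**
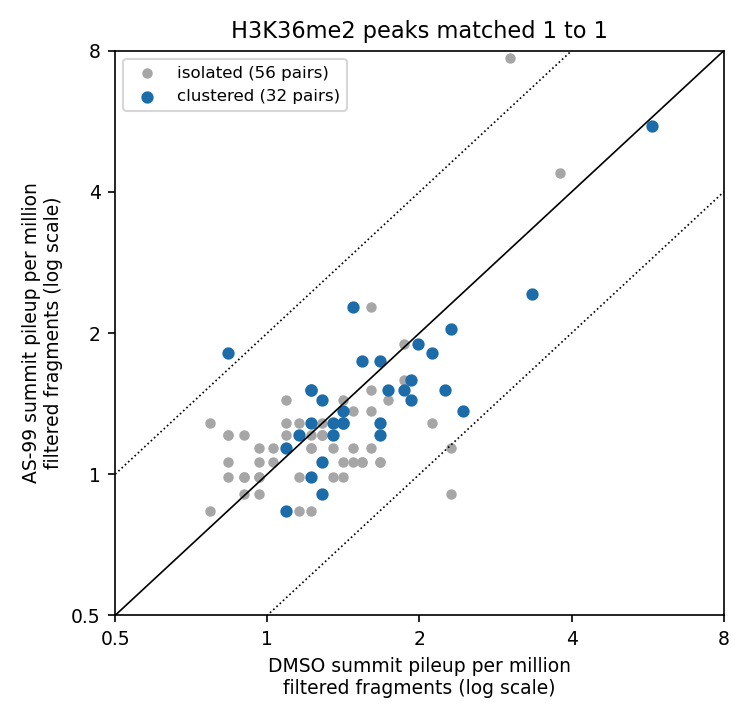
Summit pileup per 1000000 filtered fragments with DMSO (x axis) and with AS-99 (y axis), both on log scales, for 32 clustered (blue) and 56 isolated (gray) H3K36me2 peaks matched 1 to 1. The solid line marks equal values and the dotted lines a 2-fold difference. The blue point above the upper dotted line is a REXO1L1 member, and the highest blue point is the chromosome 17 member with scaled pileups of 5.78 and 5.53.

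The same chaining rule was applied to the AS-99 H3K36me2 list. Of its 591 peaks 59 were clustered, or 9.98% (7.69% to 12.7%), in 29 clusters, against 27.1% (24.7% to 29.6%) of the DMSO list. A longer list has closer neighbors by its length alone. With the DMSO list trimmed to the 591 peaks of highest −log10 p, 111 were clustered, or 18.8%, in 49 clusters. Of the 29 AS-99 clusters 7 overlapped a DMSO cluster span. Among these were the AHI1, PIK3CB and chromosome 17 clusters, that beside ZNF595, and that of THEMIS2, a signaling adaptor of B cells and macrophages.

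ASH1L peaks were also compared, since ASH1L deposits the mark. The DMSO ASH1L list held 101 peaks in 73 of the 155 spans, or 47.1% (39.0% to 55.3%), and at least 2 in 20 spans. Such a peak was present in 17 of 27 clusters of 3 or more peaks and in 56 of 128 pairs. The larger clusters also had the longer median span, 77.0 kb against 38.6 kb, and the part of span length in these counts was not tested. The AS-99 ASH1L list held 46 peaks in 34 spans, or 21.9% (15.7% to 29.3%). None of the 3 other lists had a peak in 65 spans, and all 3 had one in 12. The AS-99 ASH1L library had the fewer fragments and the shorter list, 1738 against 2977 peaks away from gaps, and their part in this was not tested.

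A DMSO ASH1L peak overlapped 72 of 353 members, or 20.4% (16.3% to 24.98%), and 145 of 950 isolated peaks, or 15.3% (13.0% to 17.7%), beside 16.7% of all. The difference of 5.13 points had an interval from 0.562 to 10.1, and 4.19 (−0.642 to 9.58) without chromosome 8. Up to a pileup of 16 the clustered and isolated shares were 13.6% and 11.6%. In the classes from 17 to 20 and from 21 to 24 they were nearly equal, at 13.2% and 12.8%, and 20.7% and 21.3%. From 25 upward they were 31.7% and 26.4%, with an interval of the difference from −7.57 to 17.8. AS-99 ASH1L peaks overlapped 9.92% of members and 8.42% of isolated peaks, beside 8.83% of all, a difference of 1.49 (−1.83 to 5.40). In all, 10 members in 8 clusters overlapped peaks of all 3 other lists, or 2.83%, beside 1.69% of all and 1.26% of isolated peaks.

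A wider difference was found in the ASH1L peaks that lay beside members and not on any H3K36me2 peak. A DMSO ASH1L summit at no DMSO H3K36me2 peak lay within 50 kb of 103 of 353 members, or 29.2% (24.5% to 34.2%), and of 190 of 950 isolated peaks, or 20% (17.5% to 22.7%), beside 22.5% of all. The difference was 9.18 points with an interval from 3.95 to 14.7. Within pileup classes it was 11.4 points (0.859 to 24.4) up to 16 fragments, 4.70 (−3.98 to 14.6) from 17 to 20, 3.94 (−6.39 to 15.3) from 21 to 24 and 6.85 (−6.56 to 19.8) from 25 upward, so its interval included 0 in 3 of the 4 classes. What part the pileup had in the difference was not tested. Members of 1 cluster can count the same ASH1L peak, so the members are not independent. Counted without regard to H3K36me2 peaks, another DMSO ASH1L summit lay within 50 kb of 39.1% of members, beside 25.2% of all, and another AS-99 ASH1L summit of 21.2%, beside 15.5% of all. On chromosome 8 alone the shares beside H3K36me2 peaks were 36.8% and 34.3%. For AS-99 ASH1L the shares beside H3K36me2 peaks were 15.3% and 13.4%, beside 13.9% of all, with a difference of 1.93 (−2.17 to 6.52). Whether the differences for the 2 ASH1L lists differ from each other was not tested.

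The DMSO H3K36me2 library itself was denser around the members, as a description of the values that also chose them. The local background behind a peak, computed from its pileup and fold enrichment, had a median of 4.01 fragments (3.91 to 4.21) in members and 3.15 (3.05 to 3.25) in isolated peaks. The genome-wide level was 1.67, so these were 2.41 and 1.89 times that level. A background of at least 3 times the genome-wide level was found behind 106 members, or 30.0%, and 88 isolated peaks, or 9.26%. Spread over the 10 kb window of the peak caller, the medians correspond to 139 and 109 fragments, against 58 genome-wide. Fold enrichment was lower in members, 4.21 (4.11 to 4.30) against 4.49 (4.42 to 4.53), while peak length was 361 bp (350 to 373) against 347 bp (343 to 352).

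Chromosome 8 held the most clusters. It had 57 clustered of 124 peaks, or 46.0%, in 25 clusters, followed by chromosome 1 with 40 of 116 peaks in 17 clusters. Chromosome 13 had 2 clustered of 31 peaks and chromosome X 2 of 12. The density of DMSO H3K36me2 peaks was 0.868 per Mb on chromosome 8 and 1.31 on chromosome 19, where 21 of 73 peaks were clustered. The median local background on chromosome 8 was 4.75 fragments, the highest of all chromosomes. The part of this background in the clustering was not tested. Without chromosome 8 the median local background was 3.90 in members and 3.07 in isolated peaks, so the denser surroundings of members were present on the other chromosomes as well.

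**Figure D5:**
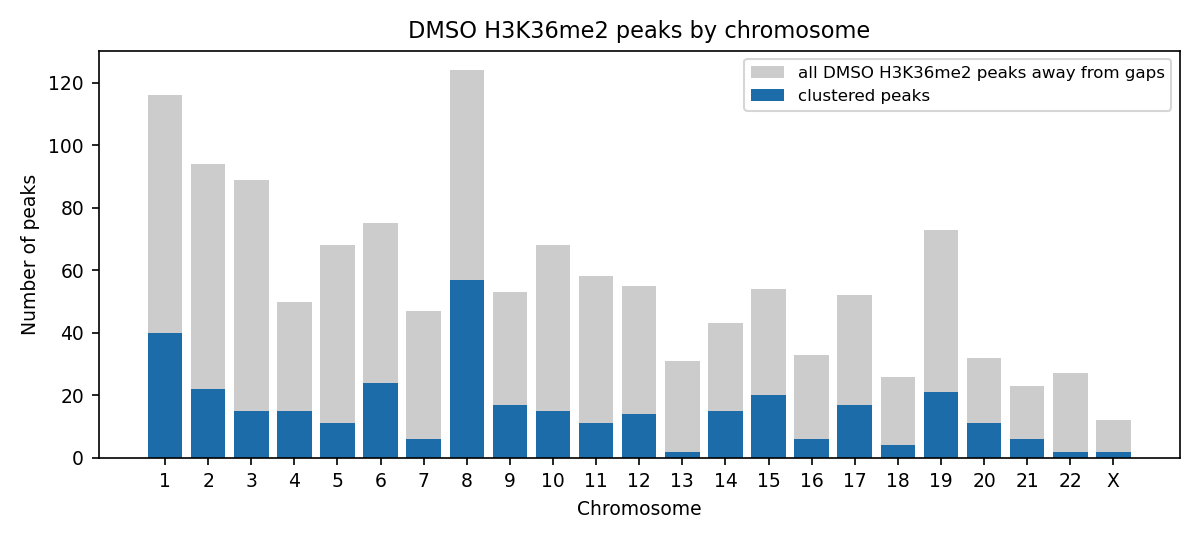
Number of DMSO H3K36me2 peaks away from gaps (gray bars) and of clustered peaks among them (blue bars) on each chromosome. Chromosome 8 has the highest bars of both kinds, 124 and 57, and chromosome 1 follows with 116 and 40.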

How the data were processed

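CUT&RUN peak lists of 4 MV4;11 libraries, 1 per group, were taken as deposited. Per the file headers, the authors called peaks in each library with MACS 2.1.0.20150731 at a q-value threshold of 0.01, with paired-end fragments, at most 2 duplicates, a 10 kb local window and no control. The submitters' processing notes also name Bowtie2, SAMtools 1.5, HOMER 4.10, bedtools and MACS 1.4, and hg19. The study's methods text gives another MACS version and threshold, a slightly higher dose and a spike-in, and its parts differ on whether replicates were pooled, which could not be settled. Values below are unscaled for a spike-in.

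The deposited signal of a peak is its pileup, the number of fragments at the summit. The deposited −log10 p-value and −log10 q-value compare it with the larger of the local and genome-wide background. Fold enrichment, also deposited, divides pileup plus 1 by background plus 1, and the background was computed back from it. Paired-end fragments carry no molecular identifiers. With 1 library per group, intervals cover counting error or variation among peaks only.

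Summits were chained and overlapped (at least 1 bp) in Python 3.11.15 with pandas 2.3.3, and overlap was tested on simulated lists and against bedtools 2.31.1. Genes came from GENCODE 44 mapped to GRCh37, whose sequence has the chromosome lengths of hg19. Shares have Clopper-Pearson, differences Newcombe and medians order-statistic 95% intervals. No p-value was computed. Without replicates, the alternatives were other distances, thresholds, overlaps and scales. The text names genes at the 15 clusters with the most peaks, at up to 15 clusters with a member overlapped by an AS-99 H3K36me2 peak, at the 5 longest and 5 most compact clusters, and from 4 gene lists. RUNX1, CEBPA, SMAD3, PIK3CB, REXO1L1, RPS6KA1 and THEMIS2 were named for their lists or after their values were seen. The members and lists were chosen with earlier results of these data known.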

Additional observations from a re-analysis of the deposited data

How the results depend on the processing

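Of 83 alternative values of the reported comparisons, 55 kept their direction and side of 0, or stayed within the set margin. The difference in overlap with AS-99 H3K36me2 peaks (3.17 points) had an interval that included 0 with a chaining distance of 50 kb (3.29), a −log10 p of at least 10 (2.58), a gap distance of 5 Mb (3.06), a reciprocal overlap of 50% (1.96), equal list lengths (3.45), without chromosome 8 (2.22) and without regions in all 4 lists (1.72). The difference in overlap with DMSO ASH1L (5.13) did so at 50 kb (2.71), a −log10 p of at least 10 (3.96), reciprocal overlap (2.83), with the AS-99 ASH1L list (1.49), without chromosome 8 (4.19) and without regions in all 4 lists (3.90). The difference in ASH1L summits beside peaks (9.18) did so at 50 kb (5.61) and at a −log10 p of at least 10 (7.33). That threshold left 64 clustered peaks in 28 clusters and turned the difference in the share inside genes to −7.06 points (−19.6 to 6.27), whose interval included 0 both ways. Equal list lengths left 111 peaks in 49 clusters. AS-99 peaks wholly inside a span were found in 13.5% of clusters. The matched log2 ratio was −0.13 with peaks shared within 1 kb, −0.38 unscaled and −0.14 without chromosome 8, each with an interval below 0, and 1.11 when pileups were divided by the summed pileup of each list, a scale that falls with the number of peaks called. The median background behind members was 3.88 at 200 kb, 3.90 without chromosome 8 and 4.46 with 1 peak per cluster. The settings without chromosome 8, without regions in all 4 lists, with 1 peak per cluster, the pileup classes, the cluster counts at equal lengths and those for ASH1L beside peaks were chosen after seeing the data. Cause was not tested for any of these shifts. No paired analysis was possible because there was 1 library per group. Depth limits what is called, with 10 fragments at the lowest DMSO H3K36me2 peak used, so a span without an AS-99 peak is not shown to lack the mark.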

Other observations

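Of the 29 clusters of the AS-99 H3K36me2 list, 7 overlapped a DMSO cluster span and 22 did not, where 6.09% of all AS-99 peaks away from gaps lay in such a span. A cluster covers more sequence than a peak, so these shares are not on the same footing. Their spans were up to 91.5 kb, with a median of 46.8 kb over all 29, and 1 had more than 2 peaks. That cluster, chr19:38453890-38539731 at SIPA1L3, which encodes a regulator of epithelial cell shape, had 3 peaks, the highest with a pileup of 23. Others lay at RIN2, a regulator of endosomal traffic, with 2 peaks over 34.7 kb, at DOK2, an adaptor in hematopoietic kinase signaling, with 2 peaks over 8.10 kb, and at STON2, with 2 peaks over 0.916 kb. These genes were chosen after their values were seen.

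The 4 AS-99 H3K36me2 peaks that lay in a DMSO span without overlapping a member included that at RUNX1 (pileup 12). Another (21) lay in a span whose edge was 1.56 kb from HNRNPU, which encodes a nuclear matrix ribonucleoprotein. The remaining ones lay outside protein-coding genes, in spans 324 kb from JARID2 (20) and 30.7 kb from CD28, a costimulatory receptor (16). These distances run from the edge of the span and not from the AS-99 peak.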
